A study of Mus musculus with 23 samples.

Results

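The genes of the cytosolic ribosomal proteins were examined in the crosslink site lists of a CTCF iCLIP2 experiment in mouse cells. Members were the protein-coding genes of GENCODE release M21 whose symbols follow the Rpl and Rps pattern or are Rplp0, Rplp1, Rplp2 or Rpsa. These were 83 of 21938 protein-coding genes, 51 named for the large and 32 for the small subunit, and 82 of them held a site in at least 1 list. Rpl3l, the paralog expressed in heart and skeletal muscle, held 0 sites in all 6 lists. Fau, which encodes a ribosomal protein fused to a ubiquitin-like protein, falls outside the symbol pattern.

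iCLIP2 links protein to RNA with UV light, and reverse transcription then stops beside the linked nucleotide, so that read starts mark crosslinks. All cells were E14 embryonic stem cells (ESCs), or cells differentiated from them for 2 days into neural progenitors (NPCs), in which endogenous CTCF carries a degron (homozygous mAID-eGFP-CTCF, with OsTIR1(F74G) at Rosa26). In every group 1 µM 5-Ph-IAA for 24 hours degraded the endogenous protein while 1 µg/mL doxycycline induced a Flag-Halo-tagged rescue CTCF from the Tigre locus. The rescue was wild type (WT) or carried a deletion of zinc finger 1 (ΔZF1), each in a line from 1 clone, so a clone and its protein cannot be told apart. Nuclei were isolated and the tagged protein was precipitated with anti-Flag beads. Cells received 400 mJ/cm2 of UV, except the non-crosslinked controls (noXL), which were made only from the WT rescue line. The 23 libraries were 4 each of WT-ESC, ΔZF1-ESC, noXL-ESC, ΔZF1-NPC and noXL-NPC, and 3 of WT-NPC, and these names stand for the groups.

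The values are single crosslinked nucleotides that the authors called with PureCLIP after pooling a group's libraries, which leaves 1 list for each group. Replicate error is therefore lacking and conditions could not be tested against each other. A range given with a share is its 95% Wilson binomial interval, and ratios and differences have 95% intervals from the counts. They cover counting error only, and neighbouring sites on an RNA are not independent, so they are too narrow. Read depth is unknown from the lists. On the sense strand of genes the lists held from 102002 sites in noXL-NPC to 429119 in WT-ESC. Sites on an RNA can rise with its abundance as well as with crosslinking, and these cannot be told apart here. The stem cell gene Esrrb held 460 sites in WT-ESC and 0 in WT-NPC, and the progenitor gene Nes 2 and 28, while Sox1, Pax6, Hes5 and Zic1 held 0 sites in both WT lists. Ctcf held 109, 68 and 40 sites in WT-ESC, ΔZF1 and noXL and 28, 23 and 17 in NPCs.

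Ribosomal protein mRNAs are short, among the most abundant mRNAs of dividing cells, and spliced from genes with small exons. Most begin with a terminal oligopyrimidine (TOP) tract, through which their translation responds to mTOR signalling. Many of the genes carry small nucleolar RNAs (snoRNAs) in their introns, and they have large families of processed pseudogenes, intronless copies that match their exons but not their introns.

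Of 170 nucleotides on 62 of these genes that were called in all 4 UV lists, 44 on 32 genes had no noXL site within 5 nt in either cell type. Most of the 170 thus lay near a noXL site, and the 44 are a selected minority. No such count over all genes is given here, so these numbers are not set against other genes. Coding exons held 34 of the 44, and 39 were uridines. The best-ranked site of each of 10 genes is given with 10 nt on either side, from mm10 and 5′ to 3′, since these are the positions on which both rescue proteins in both cell types coincided. The capital marks the crosslinked nucleotide, and sites are ordered by the lowest of their 4 score ranks. The windows are unspliced genomic sequence, and the region named is that of the capital only. A window can run past that region, as that of Rpl37 does, which begins before the annotated gene.
Rpl37, chr15:5116643-5116663, plus strand, 5′ UTR: uucucuuccgGucucuuuggc
Rpsa, chr9:120128845-120128865, plus strand, exon of a non-coding transcript: ugugcuacauUgaauuuaugg
Rps16, chr7:28352388-28352408, plus strand, coding exon: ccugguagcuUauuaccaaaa
Rpl9, chr5:65388616-65388636, minus strand, coding exon: caggaaguuuUuggacggcau
Rpl41, chr10:128548965-128548985, minus strand, 5′ UTR: cuuucucucuAgagacuccug
Rps3a1, chr3:86138477-86138497, minus strand, coding exon: aacccaaguuUgaauguaagu
Rpl7, chr1:16101784-16101804, minus strand, coding exon: caacucacuuUguagaaggug
Rpl31, chr1:39370052-39370072, plus strand, coding exon: uucggaaguuUgccaugaagg
Rps18, chr17:33952564-33952584, minus strand, coding exon: ggcggagauaUgcucaugugg
Rps15a, chr7:118114839-118114859, minus strand, coding exon: auuggugaauUugagaucauu
The Rps16 site had PureCLIP scores of 242 in WT-ESC, 119 in ΔZF1-ESC, 187 in WT-NPC and 143 in ΔZF1-NPC, and ranked above 99.5% of sites in its lowest list. The Rpl9 site scored 338, 92.0, 216 and 79.4 in the same order. The 30 nt downstream of the Rps16, Rpl41 and Rps3a1 sites occur once in the genome, whereas those of Rpl31 occur 15 times and those of Rpl9 11 times, so reads there may come from or be assigned to other copies. These 30 nt were read from the unspliced genome, so near an exon end they run into intron. A site whose 30 nt occur once can therefore still have spliced reads that match other copies.

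The first question was how much of each list fell on ribosomal protein genes. They held 3694 sites in WT-ESC, 1697 in ΔZF1-ESC and 843 in noXL-ESC, and 2143, 888 and 540 in NPCs. As a share of genic sites this was 0.861% (0.834 to 0.889) in WT-ESC, 0.779% (0.743 to 0.817) in ΔZF1-ESC and 0.559% (0.523 to 0.598) in noXL-ESC. In NPCs it was 0.931% (0.893 to 0.971) in WT, 0.580% (0.543 to 0.619) in ΔZF1 and 0.529% (0.487 to 0.576) in noXL. The ΔZF1-ESC share lay between those of WT and noXL, while the intervals of ΔZF1-NPC and noXL-NPC overlapped. With single-copy sites alone the shares of WT-ESC and ΔZF1-ESC were 0.682% and 0.676%, so the ESC step between them was lost.

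The lists also differed in where the sites lay within the genes. Coding exons held 33.4% (31.9 to 34.9) of the members' sites in WT-ESC, 19.9% (18.1 to 21.9) in ΔZF1-ESC and 6.41% (4.94 to 8.26) in noXL-ESC. In NPCs they held 34.7% (32.7 to 36.8), 12.8% (10.8 to 15.2) and 10.6% (8.24 to 13.4). Over all genes the coding-exon share was 36.3%, 38.0% and 33.8% in ESCs and 43.3%, 34.4% and 31.8% in NPCs. With single-copy sites alone the members' shares were 20.5%, 11.9% and 4.20% in ESCs and 21.7%, 7.67% and 6.54% in NPCs, in the same order of lists. On 20 other genes whose mRNAs carry TOP tracts, such as Eef1a1 and Tpt1, the share also fell, from 36.2% through 26.1% to 18.5% in ESCs and from 38.5% through 24.1% to 12.3% in NPCs. Introns took 28.8%, 37.2% and 42.0% of the members' sites in WT-ESC, ΔZF1 and noXL, and 26.3%, 41.4% and 39.3% in NPCs. Exons of all kinds, including those of non-coding transcripts, held 71.2% of the members' sites in WT-ESC, 62.8% in ΔZF1-ESC and 58.0% in noXL-ESC, and 73.7%, 58.6% and 60.7% in NPCs. The exon shares over all genes were 66.6%, 68.1%, 59.8%, 73.1%, 60.4% and 57.4% in the same order. Exons of protein-coding transcripts alone held 56.3%, 45.0% and 33.5% of the members' sites in ESCs and 58.8%, 34.9% and 34.6% in NPCs. The rest of the members' exon share lay only in exons of other transcripts, and the intron shares above leave those sites out.

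**Figure D1:**
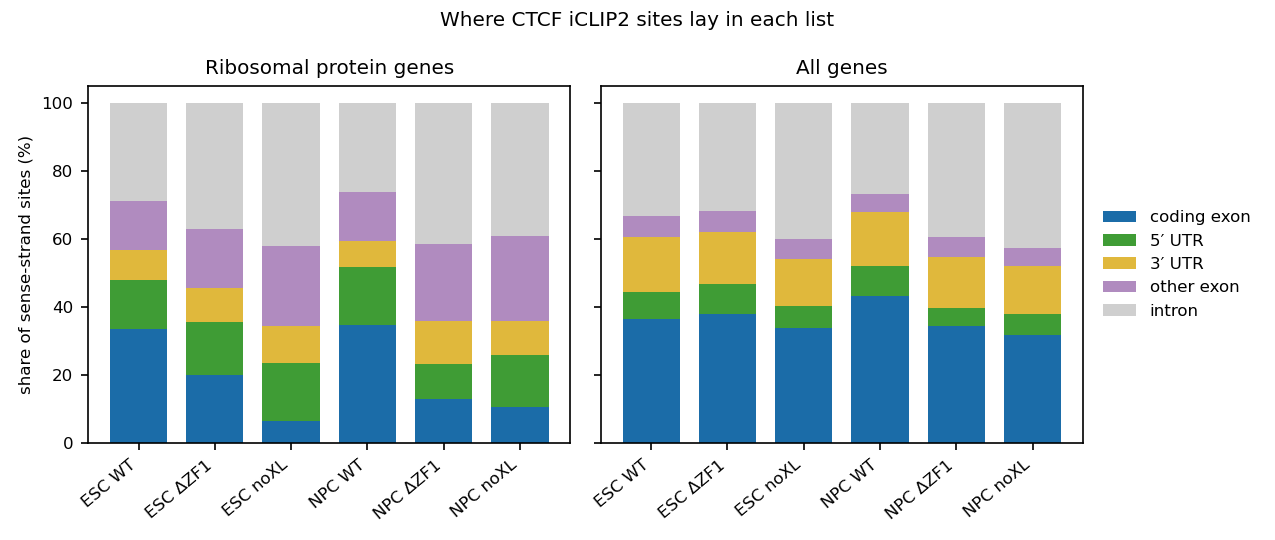
Share of sense-strand sites (%) in coding exons, 5′ UTRs, 3′ UTRs, other exons and introns, for the 83 ribosomal protein genes (left) and all genes (right) in each of the 6 lists. On ribosomal protein genes coding exons fall from 33.4% in WT-ESC to 6.41% in noXL-ESC, while over all genes they stay between 31.8% and 43.3%.

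In numbers of sites, coding exons of ribosomal protein genes held 1233 in WT-ESC, 338 in ΔZF1-ESC and 54 in noXL-ESC. In NPCs they held 744, 114 and 57. The WT count was 22.8 (17.4 to 30.0) times that of noXL in ESCs and 13.1 (9.98 to 17.1) times that in NPCs, against 3.06 and 3.07 times for coding exons of all genes. WT-ESC had 3.65 times as many sites there as ΔZF1-ESC (3.24 to 4.11) and WT-NPC 6.53 times as many as ΔZF1-NPC (5.36 to 7.95), against 1.88 and 1.89 times over all genes. Put on the scale of all coding-exon sites, the log2 ratio of WT to noXL was 2.90 (2.51 to 3.29) in ESCs and 2.09 (1.70 to 2.47) in NPCs. That of ΔZF1 to WT was -0.95 (-1.13 to -0.78) in ESCs and -1.79 (-2.07 to -1.50) in NPCs. ΔZF1-ESC stayed above noXL-ESC, with a scaled log2 ratio of 1.95 (1.53 to 2.36). For ΔZF1-NPC over noXL-NPC the ratio was 0.30, with an interval that included 0 (-0.16 to 0.75). It was 0.77 (0.21 to 1.32) with scores of at least 3.02 and -0.02 (-0.51 to 0.47) without the 10 members with most coding-exon sites, so this call depended on the sites and genes used. Between the WT lists the ratio of NPCs to ESCs was -0.08 (-0.21 to 0.05). Scaled to genic sites it was 0.17 (0.04 to 0.30), so its sign turned and its interval then left out 0. The noXL lists differed there as well, with a ratio of NPCs to ESCs of 0.73 (0.20 to 1.27) on the scale of all coding-exon sites, and the WT over noXL ratios rest on them.

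The pattern was spread over the members. All 81 members with a coding-exon site in WT-ESC or ΔZF1-ESC had more in WT. In NPCs 79 of 80 had more in WT and 1 had equal numbers. The WT lists are longer, and 80.7% and 77.3% of all genes with such a site also had more in WT. Against noXL, all 81 members in ESCs and all 80 in NPCs had more sites in WT, and 46 and 44 of them had 0 in noXL, while 85.6% and 85.5% of all genes had more in WT. Among genes with 10 or more such sites over the pair, WT led ΔZF1 in 69 of 69 members in ESCs and 41 of 41 in NPCs, against 88.3% and 88.8% of genes, and led noXL in 63 of 63 and 39 of 39, against 97% and 96.6%. Counts were therefore also scaled for those genes. In ESCs 64 of 69 members then had a ΔZF1 to WT ratio below 0, against 50.2% of 5907 genes, and 22 stood at or below -1, against a background of 10.3%. In NPCs all 41 members were below 0, against 46.6% of 4906 genes, and 28 were at or below -1, against 9.99%. The median of these members was -0.79 in ESCs and -1.31 in NPCs. For WT over noXL, 53 of 63 members in ESCs and 21 of 39 in NPCs had a coding-exon log2 ratio of at least 1, against backgrounds of 13.2% and 12.7%. Below 0 were 1 of the 63 and 4 of the 39, against 51.6% and 55.5% of genes. In NPCs 1 member stood at or below -1, as did 565 of 4424 genes. Members that pass the minimum mostly do so through their WT sites, so these counts describe the members that passed and not all 83.

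**Figure D2:**
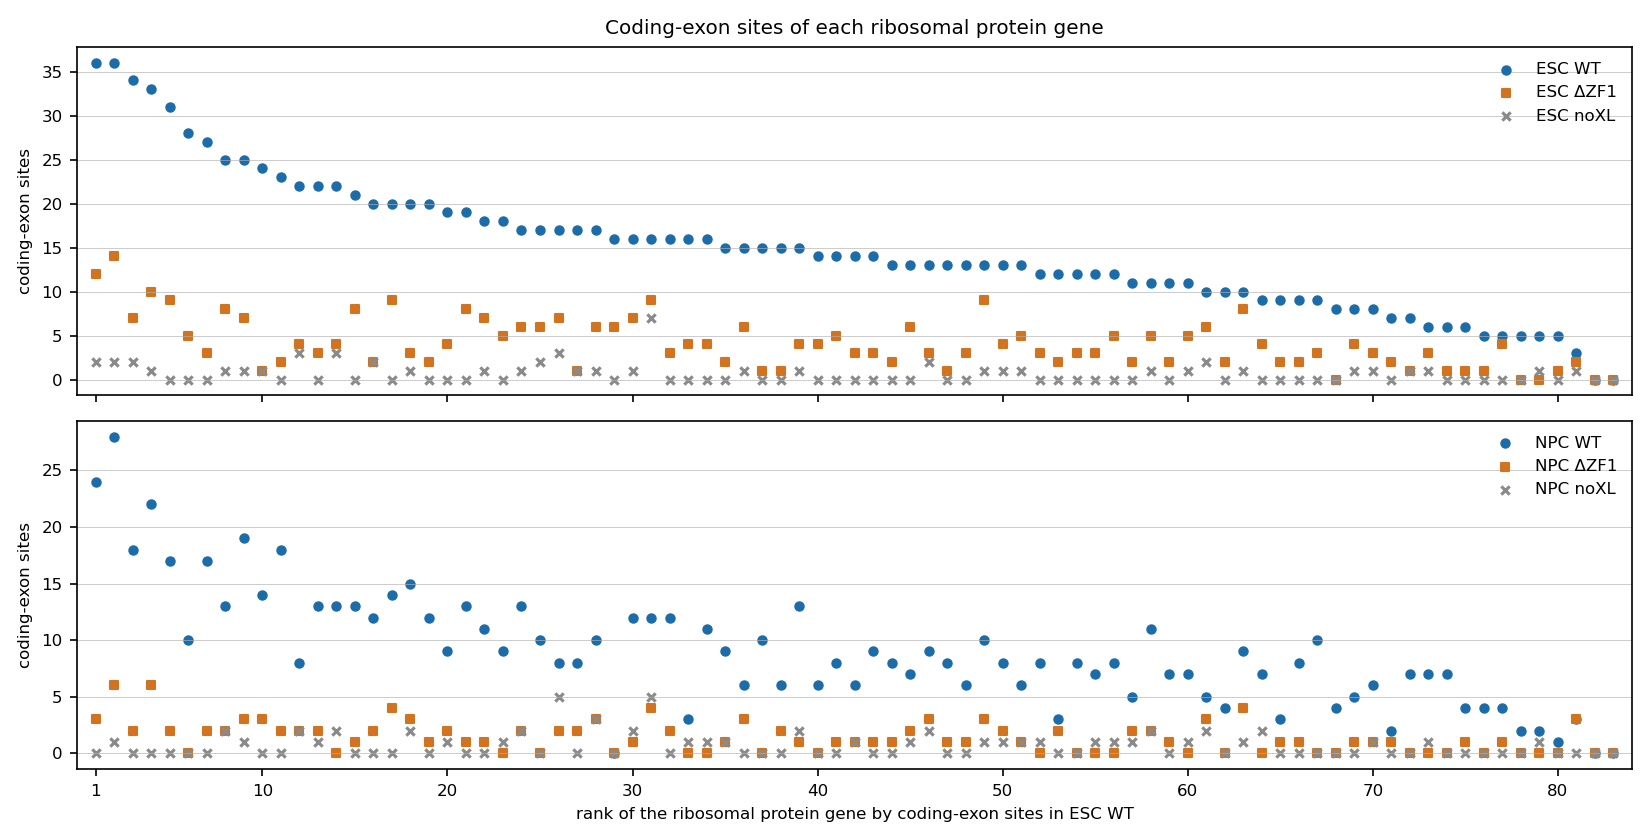
Coding-exon sites (number, vertical axes) of each of the 83 ribosomal protein genes, ordered by their number in WT-ESC, in the 3 ESC lists (top) and the 3 NPC lists (bottom). WT-ESC points reach 36 sites for Rpl3 and Rplp0, ΔZF1-ESC points reach 14, and noXL-ESC points stay at 7 or fewer.

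The members' own values show the spread. The median member held 14 coding-exon sites in WT-ESC, 3 in ΔZF1-ESC and 0 in noXL-ESC, and 8, 1 and 0 in NPCs. Rplp0, the scaffold of the ribosomal stalk, lies at chr5:115559467-115563727 on the plus strand. Its coding exons held 36 sites in WT-ESC, 14 in ΔZF1-ESC, 2 in noXL-ESC, 28 in WT-NPC, 6 in ΔZF1-NPC and 1 in noXL-NPC. Rpl3, whose protein lies close to the peptidyl transferase centre, lies at chr15:80077791-80091868 on the minus strand and held 36, 12, 2, 24, 3 and 0 in the same order. In both genes WT led in both cell types and noXL was lowest. Rpsa, the small-subunit protein also known as the laminin receptor, held 34, 7, 2, 18, 2 and 0 coding-exon sites. Rps4x, the X-linked copy of Rps4, held 33, 10, 1, 22, 6 and 0. Rps2 held 31, 9, 0, 17, 2 and 0. Rpl7l1, a paralog of Rpl7, was the exception in the controls, with 16, 9, 7, 12, 4 and 5 coding-exon sites, the largest count among members without UV in ESCs and equal with Rps19 in NPCs.

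Among the other members fixed for description, Rpl5 and Rpl11, which bind 5S rRNA and, as a complex with it, the p53 regulator Mdm2, held 17 and 14 coding-exon sites in WT-ESC, 6 and 4 in ΔZF1-ESC and 1 and 0 in noXL-ESC. Rplp1 and Rplp2, the acidic stalk proteins, held 13 and 12 in WT-ESC, 3 and 3 in ΔZF1-ESC and 0 in noXL-ESC. Rps6, the substrate of S6 kinase, held 12, 5 and 0, and Rps27a, made as a fusion with ubiquitin, 20, 2 and 0. Of the paralogs, Rps27l held 18, 5 and 0 in ESCs and 9, 0 and 1 in NPCs, and Rpl22l1 13, 3 and 2 in ESCs and 9, 3 and 2 in NPCs. Rpl10l, an intronless copy of Rpl10, held 16, 6 and 0 in ESCs and 0 in every NPC list. Of all Rpl10l sites, 47.8% had a downstream sequence found elsewhere in the genome, so its share of reads is uncertain. Rpl39l held 3 sites in WT-ESC and 0 elsewhere. Fau held 22, 8 and 4 sites over its whole gene in WT-ESC, ΔZF1 and noXL.

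Genes of both subunits had the largest coding-exon share with WT, and in WT-ESC it was higher for the small subunit, although the subunits were not tested against each other. Coding exons held 31.3% (29.4 to 33.3) of the sites on large-subunit genes in WT-ESC, 18.7% in ΔZF1-ESC and 6.10% in noXL-ESC. On small-subunit genes they held 36.5% (34.1 to 39.0), 21.8% and 6.92%. In NPCs the shares were 32.5%, 13.0% (10.45 to 16.15) and 9.43% (6.69 to 13.15) for the large subunit. For the small subunit they were 38.0%, 12.5% (9.47 to 16.4) and 12.2% (8.49 to 17.1). The ΔZF1 and noXL intervals overlapped for both subunits.

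Outside coding exons the lists differed less. Scaled to all genes in the same kind of region, the log2 ratio of WT-ESC to noXL was 0.12 (-0.15 to 0.38) in 5′ UTRs, 0.03 (-0.30 to 0.37) in 3′ UTRs, -0.08 (-0.32 to 0.15) in other exons and 0.35 (0.17 to 0.52) in introns. The ratio of ΔZF1-ESC to WT in introns was 0.29 (0.15 to 0.43), the opposite sign to coding exons. In NPCs the ΔZF1 to WT ratio was -0.58 (-0.77 to -0.39) in introns and -0.69 (-1.02 to -0.37) in 5′ UTRs, both nearer 0 than the -1.79 of coding exons, and 0.14 (-0.21 to 0.49) in 3′ UTRs. WT-NPC exceeded noXL-NPC in introns by 0.90 (0.67 to 1.13).

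Other gene families were counted in the same way. In coding exons the log2 ratio of ΔZF1-ESC to WT was -0.72 (-0.95 to -0.50) for the 20 other TOP genes, -0.60 (-0.77 to -0.42) for 39 proteasome subunit genes and -0.24 (-0.40 to -0.08) for 78 mitochondrial ribosomal protein genes. In NPCs the values were -0.71 (-1.01 to -0.41), -0.16 (-0.36 to 0.04) and -0.21 (-0.42 to -0.01). With all sites, cytosolic ribosomal protein genes, at -0.95 and -1.79, were lowest in both cell types. In ESCs their interval overlapped that of the other TOP genes. The ESC ranking did not hold with uridine sites alone, in each family and in all genes. The members' value was then -0.52 (-0.72 to -0.32), nearer 0 than those of the other TOP genes and the proteasome genes. In NPCs the members stayed lowest at uridines, at -1.49. Differences between families at uridines were not tested. For WT over noXL the other TOP genes stood at 1.41 (1.07 to 1.75) in ESCs and 1.73 (1.24 to 2.23) in NPCs, the proteasome genes at 0.62 and 0.56 and the mitochondrial ribosomal protein genes at 0.57 and 0.67, against 2.90 and 2.09 for the cytosolic genes, whose interval in NPCs overlapped that of the other TOP genes.

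**Figure D3:**
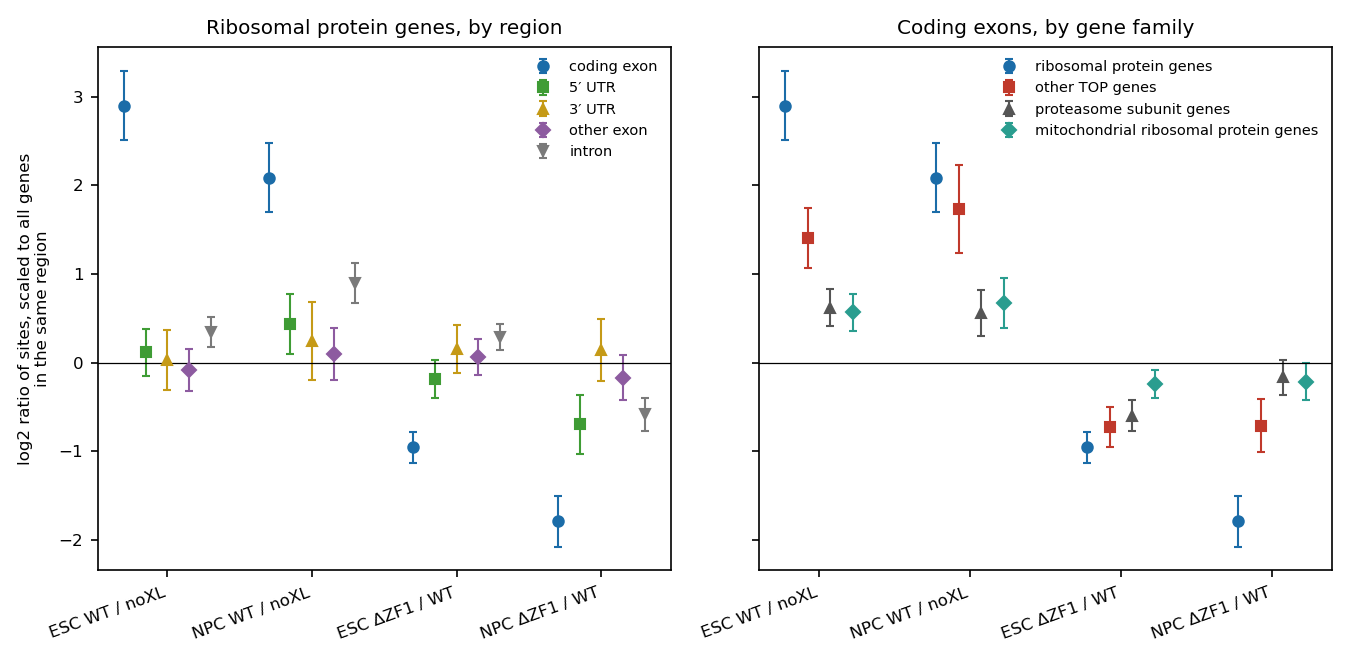
Log2 ratios of sites, scaled to all genes in the same region, for WT over noXL and ΔZF1 over WT in each cell type, by region of the ribosomal protein genes (left) and for coding exons of 4 gene families (right). Bars are 95% intervals from counting error, and coding exons of ribosomal protein genes lie at 2.90 and 2.09 for WT over noXL and at -0.95 and -1.79 for ΔZF1 over WT, with intervals that overlap those of the other TOP genes for WT over noXL in NPCs and ΔZF1 over WT in ESCs.

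Ribosomal protein exons have many near copies in the genome, which could move reads between loci. The 30 nt downstream of a site occurred elsewhere for 53.9% of the members' coding-exon sites in WT-ESC, 51.2% in ΔZF1-ESC, 40.7% in noXL-ESC and 53.9%, 47.4% and 45.6% in NPCs, against 6.10% of their intron sites in WT-ESC and 4.51% of coding-exon sites over all genes. The 30 nt were read from the unspliced genome, so sites near an exon end can count as single-copy although their exon has copies. With single-copy sites alone, coding exons held 568 sites in WT-ESC, 165 in ΔZF1-ESC and 32 in noXL-ESC, and 343, 60 and 31 in NPCs. Scaled as before, ΔZF1 over WT was then -0.89 (-1.14 to -0.64) in ESCs and -1.61 (-2.01 to -1.22) in NPCs, and WT over noXL 2.56 (2.05 to 3.07) and 1.87 (1.34 to 2.39). On 294 pseudogenes named after members, 41 of which held a site, there were 157 sites in WT-ESC, 71 in ΔZF1-ESC and 13 in noXL-ESC, and 78, 22 and 2 in NPCs. Chromosome 11, on which the ΔZF1 lists are low over all genes, carries 7 members. Without them the coding-exon log2 ratio of ΔZF1 to WT was -0.98 (-1.16 to -0.80) in ESCs and -1.80 (-2.09 to -1.51) in NPCs.

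Uridines, which UV links most readily, were the main base under coding-exon sites. They made up 70.2% (67.6 to 72.7) of these sites on the members in WT-ESC, 75.7% (70.9 to 80.0) in ΔZF1-ESC and 20.4% (11.8 to 32.9) in noXL-ESC, and 78.4% (75.3 to 81.2), 82.5% (74.5 to 88.4) and 19.3% (11.1 to 31.3) in NPCs. The coding sequences of the members contain 19.8% uridine. Other bases at noXL-ESC sites departed from the coding sequence, with 38.9% guanine and 13.0% cytosine against 27.9% and 24.8%. Over coding exons of all genes the uridine share was 60%, 47.8% and 23.9% in ESCs and 66.3%, 56.8% and 22.8% in NPCs. WT exceeded ΔZF1 by 12.2 points in ESCs and 9.55 in NPCs over all genes, whereas on ribosomal protein genes it was 5.50 points lower in ESCs (difference -5.50, -10.5 to -0.06) and not separable in NPCs (-4.10, -10.8 to 4.39). Counted at uridines alone, in members and all genes, the coding-exon log2 ratio of ΔZF1 to WT moved to -0.52 (-0.72 to -0.32) in ESCs and -1.49 (-1.81 to -1.18) in NPCs, so the ESC value depended on the base. At uridines ΔZF1-NPC stood above noXL-NPC by 1.08 (0.19 to 1.96). Over the whole genes, introns included, uridine made up 63.2%, 55.9% and 29.8% of the members' sites in WT-ESC, ΔZF1 and noXL and 68.3%, 60.9% and 32.8% in NPCs.

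The letters beside the site were also uneven. The nucleotide before a coding-exon site was uridine in 55.5% of WT-ESC and 63.3% of ΔZF1-ESC sites, against 13.0% in noXL-ESC, and the nucleotide after it was guanine in 35%, 37.3% and 59.3%. UUG with the site on its second letter, read on the sense strand, was found at 17.6% (15.6 to 19.8) of the members' coding-exon sites in WT-ESC, 21.3% (17.3 to 26.0) in ΔZF1-ESC and 3.70% (1.02 to 12.5) in noXL-ESC, and at 23.7%, 28.1% and 3.51% in NPCs. It covers 1.36% of the coding nucleotides of these genes, and 12.7% and 16.2% of coding-exon sites over all genes in the WT lists had it. In the windows above it stands at the Rpsa, Rps3a1, Rpl7 and Rpl31 sites. A site lay in a run of 3 or more uridines, which can overlap UUG, for 23.4% of the members' coding-exon sites in WT-ESC, close to the 23.2% over all genes. In ΔZF1-ESC the shares were 32.2% (27.5 to 37.4) and 15.4%. In NPCs the members' share was 28.5% (25.4 to 31.8) with WT and 28.1% (20.6 to 36.9) with ΔZF1, against 26.7% and 18.1% over all genes.

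Coding-exon sites of ribosomal protein genes carried high scores. The PureCLIP score is not scaled to depth, so sites were ranked within their list. Of the members' coding-exon sites, 75.2% (72.7 to 77.5) were in the top 10% of WT-ESC, 61.2% (56.0 to 66.3) in that of ΔZF1-ESC and 25.9% (16.1 to 38.9) in that of noXL-ESC. In NPCs the shares were 71.6%, 52.6% and 12.3%. Over all genes 6.40% to 10.2% of coding-exon sites were in the top 10%. Among the other TOP genes the shares were 42.4% (38.6 to 46.3) in WT-ESC, 32.8% in ΔZF1-ESC and 10.3% in noXL-ESC. In NPCs they were 46.7%, 24.4% and 16.7%, the last above the 12.3% of the members. The median score of the members' coding-exon sites was 36.8 in WT-ESC, 16.2 in ΔZF1-ESC and 6.85 in noXL-ESC, against 2.72, 2.67 and 4.04 over all genes. Sites in 5′ UTRs of the members ranked high with and without UV in ESCs, with 74.8% in the top 10% of WT-ESC and 71.7% in that of noXL-ESC. In NPCs the shares were 76.8% with WT, 50% (40.0 to 60.0) with ΔZF1 and 71.1% (60.6 to 79.7) in noXL. Of the 5′ UTR sites in WT-ESC 62.3% lay within 5 nt of a noXL-ESC site, against 5.68% of coding-exon sites. Introns of the members had 16.3% of their WT-ESC sites in the top 10%.

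**Figure D4:**
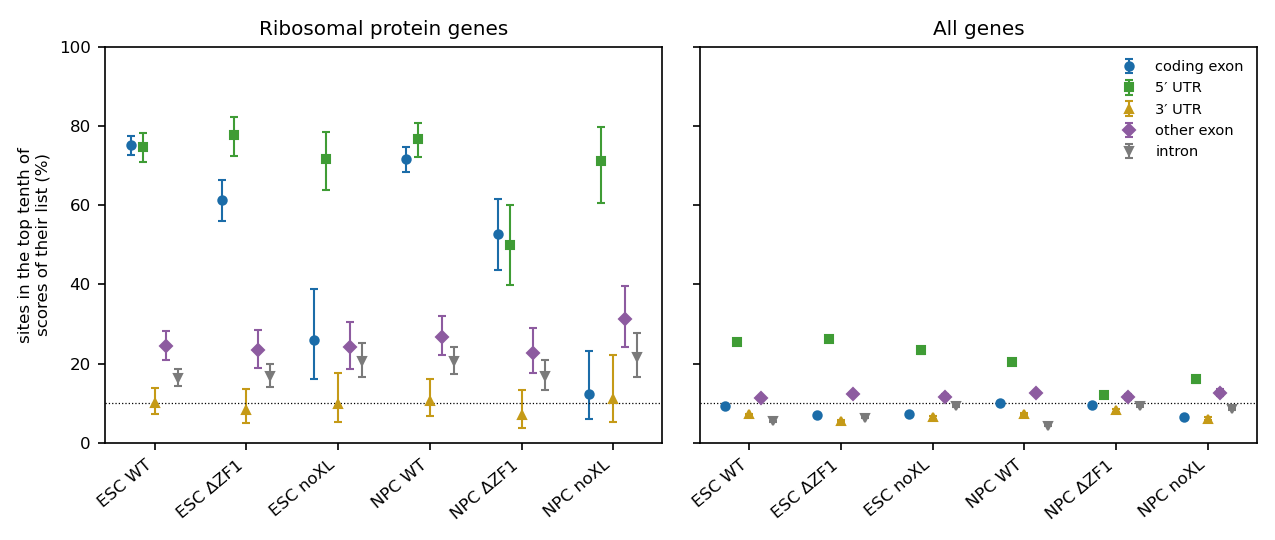
Share of sites in the top 10% of scores of their own list (%), by region, for ribosomal protein genes (left) and all genes (right), with 95% Wilson intervals and a dotted line at 10%. Coding-exon sites of ribosomal protein genes reach 75.2% in WT-ESC and 25.9% in noXL-ESC, while 5′ UTR sites reach 74.8% and 71.7%.

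How often sites coincided between lists depended on the pair of lists. Of the ΔZF1-ESC coding-exon sites on the members 88.5% (84.6 to 91.4) lay within 5 nt of a WT-ESC site, against 26.6% of coding-exon sites over all genes. In NPCs the share was 76.3% (67.7 to 83.2), against 19.1%. Of the WT-NPC coding-exon sites 87.8% (85.2 to 89.9) had a WT-ESC site that near, where all genes had 32.7%. Without UV, 17.5% (9.82 to 29.4) of the noXL-NPC coding-exon sites lay within 5 nt of a noXL-ESC site, against 7.03% over all genes, and over the whole genes 31.1% (27.4 to 35.1) did, against 6.65%. Of the members' WT-ESC coding-exon sites 5.68% (4.52 to 7.11) lay that near a noXL-ESC site, below the 7.79% over all genes. For WT-NPC sites and noXL-NPC the share was 6.05% (4.55 to 7.998), against 5.01%. ΔZF1 sites lay near those of noXL in 9.47% (6.79 to 13.1) of cases in ESCs, against 7.56%, and 7.02% (3.599 to 13.2) in NPCs, against 4.44%, and all 3 of these intervals included the share over all genes. In introns of the members the first 3 shares were 29.6%, 26.6% and 38.2%. Site density was higher on the members, with 28.8 coding-exon sites per 1000 coding nt in WT-ESC, and its part in these shares was not tested.

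Along the spliced transcripts, UV sites were spread more evenly than noXL sites. The first 10% of the transcript held 30.8% of exon sites in noXL-ESC and 26.9% in noXL-NPC, but 15.8% in WT-ESC, 20.0% in ΔZF1-ESC, 17.3% in WT-NPC and 15.2% in ΔZF1-NPC. The last 10% held from 2.63% in WT-NPC to 5.80% in noXL-ESC. Within 25 nt of the annotated start lay 61 of 1881 exon sites in WT-ESC, 26 of 655 in ΔZF1-ESC and 14 of 224 in noXL-ESC, or 3.24% (2.53 to 4.14), 3.97% (2.72 to 5.75) and 6.25% (3.76 to 10.2). The annotated starts of only 8 of 83 members, or 9.64%, read C followed by 4 pyrimidines, against 2.25% of protein-coding genes. How well these starts place TOP tracts was not tested. Within 10 nt of an exon junction lay 14.6% (13.1 to 16.3) of exon sites in WT-ESC, 15.0% in ΔZF1-ESC and 9.38% (6.21 to 13.9) in noXL-ESC, where 8.36% of the transcripts' nucleotides lie. In NPCs the shares were 15.0% (13.0 to 17.2) with WT, 10.0% (6.87 to 14.3) with ΔZF1 and 11.9% (7.74 to 17.8) in noXL, with overlapping intervals.

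**Figure D5:**
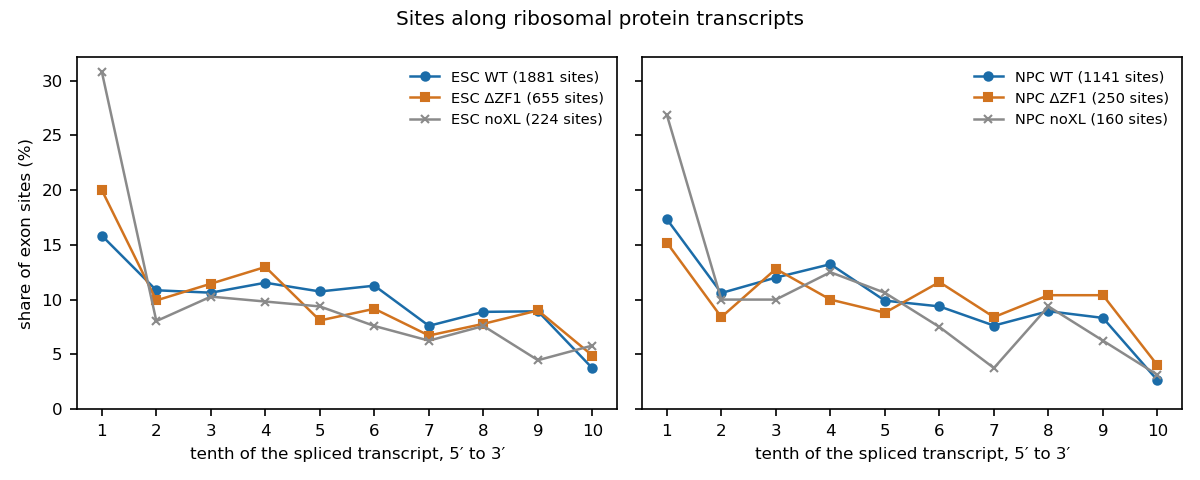
Share of exon sites (%) in each of 10 equal bins of the spliced representative transcript of the ribosomal protein genes, 5′ to 3′, for the ESC (left) and NPC (right) lists, with the number of sites of each. Bin 1 holds 30.8% of noXL-ESC sites and 15.8% of WT-ESC sites.

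Whole genes, introns included, gave weaker contrasts. Per gene, the log2 ratio used a pseudocount of 1 and was scaled to genic sites, for genes with 20 or more sites over the pair of lists. A member could reach this minimum through the WT list alone, as Rps23 did in NPCs with 21 sites in WT, 2 in ΔZF1 and 1 in noXL, so the medians and counts describe the members that passed. For WT over noXL the median of 78 members was 0.60 in ESCs, against 0.02 over 6208 genes. It was 0.31 with single-copy sites, against 0.02, 0.33 at uridines, against -0.06, and 1.03 with scores of at least 3.02, against 0.01. In ESCs 21 members had a ratio of at least 1, against 8.12% of genes, and 0 had a ratio of at most -1, against 6.6%. In NPCs the median of 68 members was 0.75, against 0.03, with 25 at or above 1, against 10.5%, and 0 at or below -1, against 6.51%. With single-copy sites 8 of 53 members were at or above 1, against 9.66% of genes, and 0 at or below -1, against 6.41%, with a median of 0.49 against 0.02. With at least 40 sites 4 of 23 members were at or above 1, against 5.995% of genes, with a median of 0.49 against -0.04, and in ESCs 12 of 55, against 4.515%. At uridines 7 of 37 members were at or above 1, against 10.9%, and 1 at or below -1, against 9.33%, with a median of 0.30 against -0.09. For ΔZF1 over WT in ESCs the median of 80 members was -0.20, against 0.04, and 0 passed either limit, against 6.84% above and 5.45% below. That median moved to -0.01 at uridines alone and to -0.02 with single-copy sites. In NPCs the median of 71 members was -0.66, against -0.04, and 16 were at or below -1, against 7.36%, with 0 at or above 1, against 5.76%. With single-copy sites 8 of 58 members were at or below -1, against 8.02% of genes, and 0 at or above 1, against 5.68%, with a median of -0.36 against -0.04. With at least 40 sites 2 of 27 were at or below -1, against 4.06%, and the median was -0.38. Between cell types the WT median was 0.15 over 79 members, against 0.04, with 0 at or above 1, against 11.5%, and 1, Rps29, at or below -1, against 10.4%. Unscaled it was -0.75. In noXL the median of 29 members was -0.07, and Rplp2 and Rpl4 were past the limits of 1 and -1, against 11.1% and 12.3% of genes.

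Single members with 50 or more sites over the pair of lists had wide intervals. For WT over noXL in ESCs, Rpl9 and Rplp0 stood at 1.49 (0.44 to 3.01) and 1.47 (0.48 to 2.85). Rps19, which is mutated in Diamond-Blackfan anaemia, held 57 and 26 sites, a ratio of -0.41 (-1.04 to 0.29), with Rpl13 at -0.30 and Rpl4 at -0.29 next to it. Another gene of that strand covered 100% of Rpl13 sites. In NPCs the highest WT to noXL ratios were 0.96 (0.16 to 1.93) for Rpl22, 0.92 for Rpsa and 0.85 for Rpl3, and the lowest 0.04 for Rpl23, 0.16 for Rps24 and 0.17 for Rps19. Apart from Rpl22, Rpsa and Rpl3, the intervals of these NPC ratios included 0.

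For ΔZF1 over WT in NPCs, Rplp0 was lowest, with 42 WT and 9 ΔZF1 sites and a ratio of -1.52 (-2.65 to -0.62). In ESCs the same gene held 54 and 29 sites, a ratio of 0.10 (-0.56 to 0.73), so its whole-gene ratio was near 0 there although its coding exons went from 36 to 14. Rpsa stood at -1.16 (-2.11 to -0.36) and Rps14 at -0.998 (-1.997 to -0.155) in NPCs. Rpl31, Rps3a1 and Rps10 were highest at 0.25, 0.05 and 0.05, with intervals that included 0, and 93.9% of Rps10 sites overlapped another gene of that strand. In ESCs Rpl9, Rpl26 and Rps4x all stood at -0.70, and Rps15a at 0.65 (0.22 to 1.07) with Rpl24 at 0.74 and Rps25 at 0.46 were highest. Between the WT lists Rpl37, Rpl23a and Rplp0 were highest in NPCs at 0.60, 0.57 and 0.54 and Rpl26, Rpl7l1 and Rpl6 lowest at -0.64, -0.54 and -0.41. Only the interval of Rpl7l1 (-1.10 to -0.02) excluded 0. Without UV only Rpl5 and Rps15a reached 50 sites, at -0.20 and 0.20.

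By number of sites over the whole gene, Rpl5 led both WT lists. It lies at chr5:107900502-107909005 on the plus strand and held 105 sites in WT-ESC, 45 in ΔZF1-ESC, 33 in noXL-ESC, 74 in WT-NPC, 38 in ΔZF1-NPC and 19 in noXL-NPC. Rpl7l1, at chr17:46773907-46782672 on the minus strand, held 102 in WT-ESC and 37 in WT-NPC, and Rps15a 97 and 62. Rpl22, a peripheral protein of the large subunit, held 94 and 56, of which 60 in WT-ESC were intronic and 8 in coding exons. Rps24 held 89 and 52, Rpl3 82 and 52, Rpsa 81 and 46, Rps3, a protein at the mRNA entry channel, 75 and 49, Rps7 68 and 38 and Rps4x 66 and 41. Rpl26, equal to Rps4x in WT-ESC with 66 sites, held 22 in WT-NPC, and Rplp0 and Rpl4 completed the WT-NPC top 10 with 42 and 40.

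SnoRNAs lie inside 30 of the 83 members. They held 2.92% (2.43 to 3.52) of the members' sites in WT-ESC, 3.06% in ΔZF1-ESC and 4.27% (3.10 to 5.86) in noXL-ESC, and 3.78%, 4.17% and 6.85% (5.01 to 9.30) in NPCs. Rpl13a, which hosts Snord32a, Snord33, Snord34 and Snord35a, held 10, 7 and 6 such sites in WT-ESC, ΔZF1 and noXL and 7, 2 and 5 in NPCs. Another gene of that strand covered 95.7% of all Rpl13a sites. Rps12 held 10, 6 and 4 in ESCs and 8, 4 and 5 in NPCs. In both genes sites in snoRNAs fell less from WT to noXL in ESCs than those in coding exons, which went from 13 to 0 for Rpl13a and from 22 to 3 for Rps12.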

How the data were processed

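Per the labels and the study's methods, the authors used Flexbar for demultiplexing and trimming, STAR for alignment to mm10 and UMI-tools for duplicate removal, then pooled each group's libraries for PureCLIP. Versions, PureCLIP settings and the handling of reads with several matches are not given in the sources used here, so sites in repeated sequence are uncertain. The deposited value is the PureCLIP score of each 1-nt site, used for ranks inside a list and for an alternative with a minimum of 3.02. Each site counts once, whatever its reads.

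Autosomal, X and Y sites were assigned to GENCODE M21 gene bodies on the same strand (coding exon, 3′ UTR, 5′ UTR, other exon, intron, in that order, over all transcripts). The base and the number of genomic copies of the unspliced 30 nt downstream came from GRCm38. Groups were taken from the sample labels. Scaled ratios used a pseudocount of 1 for genes and none for sums. Members that were named had the most sites in a WT list (10 each), the 3 highest or lowest ratios among those with at least 50 sites, the most snoRNA sites, or were listed by role; Rps2, Rps29 and the noXL values of Rplp2 and Rpl4 were given after their values were seen. Members, families and lists were chosen with earlier results of these data known. Some genes that this rule names are not reported here. Marker genes served as a check of the cells. Calculations were tested on simulated data. Software was numpy 2.4.6, pandas 2.3.3, scipy 1.17.1, numba 0.67.0 and matplotlib 3.10.9 under Python 3.11.15.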

Additional observations from a re-analysis of the deposited data

Results flagged for a closer look

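Rpl24 stood out because its scaled log2 ratio of ΔZF1 to WT had opposite signs in ESCs, at 0.74 (0.00 to 1.47), and NPCs, at -1.41 (-3.15 to -0.17). ESCs gave 32 sites with WT and 27 with ΔZF1, and NPCs gave 19 and 4, so that before scaling ΔZF1 was lower in both. Another gene of that strand covered all of its sites. Without replicates no test of the difference between ESCs and NPCs could be made.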

How the results depend on the processing

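No paired analysis was possible because PureCLIP was run on pooled libraries, and no library could be left out. The share of genic sites, in the order ESC WT, ΔZF1, noXL, NPC WT, ΔZF1, noXL, was 1.38%, 1.06%, 0.627%, 1.49%, 0.672% and 0.619% with scores of at least 3.02. It was 0.770%, 0.657%, 0.807% and 0.501% in the 4 UV lists without sites near noXL sites, and 0.682%, 0.676%, 0.721% and 0.533% in them without repeated sequence, where the WT and ΔZF1 shares of ESCs nearly coincided. With that score minimum the exon share was 78.8%, 71.4% and 82.9% in ESC WT, ESC ΔZF1 and NPC WT. The uridine share was 59.1% with the score minimum and 58.6% in exons in ESC ΔZF1, and 70.8% in exons in NPC WT. Alternatives for coding exons were chosen after seeing the data. Their share was 42.8%, 26.8%, 45.7% and 16.4% in the UV lists with the score minimum, 38.1%, 23.4% and 39.9% without sites near noXL in ESC WT, ESC ΔZF1 and NPC WT, 20.5%, 11.9%, 4.20%, 21.7%, 7.67% and 6.54% without repeated sequence, and 37.1%, 27.0%, 4.38%, 39.8%, 17.4% and 6.22% at uridines. The coding-exon log2 ratio of WT to noXL was 3.54 and 2.96 with the score minimum and 3.36 and 2.57 at uridines in ESCs and NPCs. That of ΔZF1 to WT was -2.20 in NPCs with the score minimum, and -0.52 and -1.49 at uridines. That of ΔZF1 to noXL was 2.53 and 0.77 (0.21 to 1.32) with the score minimum and 2.84 and 1.08 (0.19 to 1.96) at uridines, and both NPC intervals excluded 0, unlike that of the value with all sites. Scaled to genic sites, WT to noXL was 2.53 and ΔZF1 to WT -2.12 in NPCs, and WT in NPCs over ESCs 0.17, with its sign turned from -0.08 and an interval (0.04 to 0.30) that left out 0. The other 34 coding-exon values moved by less than their interval.

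Sites coinciding on the same nucleotide were 42.0% and 27.5% of ΔZF1 sites with WT, 51.9% of NPC WT with ESC WT, 7.07% and 7.84% of WT with noXL, 13.9% and 10.7% of ΔZF1 with noXL, and 25.4% of NPC noXL with ESC noXL. Within 10 nt they were 55.6% and 38.3%, 68.2%, 20.2% and 20.0%, and 25.4% for ESC ΔZF1 with noXL. Whole-gene medians follow for WT over noXL in ESCs and NPCs, ΔZF1 over WT in ESCs and NPCs, and NPC over ESC in WT and noXL. Unscaled they were 2.11, 1.93, -1.18, -1.25, -0.75 (the WT value changed sign) and -0.64, with 78, 64, 56, 52, 11 and 5 members past 1 or -1, against 83.1%, 63.95%, 48.6%, 30.3%, 47.1% and 35.9% of all genes. With the score minimum they were 1.03 in the first, -0.34 and -1.08 for ΔZF1 over WT and -0.30 for noXL, with 39, 2 and 31 members past the limits, against 18.9%, 12.7% and 18.3% of genes, and 0 and 0 between cell types, against 19.5% and 22.3%. At uridines they were 0.33, 0.30, -0.0101 and -0.52, with 8, 1, 9 and 0 members from the second comparison to the fifth, against 20.2%, 12.5%, 14.1% and 20.7%. Without repeated sequence they were 0.31, 0.49, -0.0210 and -0.36, with 8, 1, 8, 0 and 1 members from the second on, against 16.1%, 12.5%, 13.7%, 22.2% and 23.1%. Exon sites alone gave 0.45 and -0.50 for both NPC comparisons, with 10, 2, 9, 0 and 0 members from the second on, against 16.2%, 11.9%, 11%, 17.4% and 17%. At least 40 sites gave 0.49, -0.38 and, for noXL, -0.24, with 12, 4, 2, 0 and 0 members (all but the third comparison), against 8.15%, 10.6%, 8.86%, 16.7% and 19.4%, and at least 10 sites 2 and 4 members between cell types, against 27.1% and 29.2%. Members tested in these settings numbered from 6 to 81. The causes were not tested.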
